A study of Mus musculus with 17 samples.

Results

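Long noncoding transcripts that gave small RNA in mouse testis were described in small RNA and RNA immunoprecipitation libraries. They were chosen by their wild-type small RNA: Ensembl transcripts longer than 200 nt with no coding size and at least 10 counts per 1000000 counts of the library (CPM) in both wild-type small RNA libraries. This rule selected 165 of 14099 noncoding transcripts over 200 nt, among 38456 rows of the small RNA tables. Of the other rows, 465 were entries at 214 piRNA loci, and 308 coding transcripts passed the same wild-type level. A member of the set can lie inside a piRNA locus, because locus and transcript were counted as separate rows. The comparisons ask how small RNA from these transcripts differed without MAEL, and which of the transcripts were recovered with MAEL as long RNA.

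The libraries were made from testis of 129SvJae mice. The groups used were Mael-/- small RNA of 15 to 50 nt (2 libraries) and wild-type small RNA of 15 to 50 nt (2 libraries). From wild-type testis came RNA recovered with an anti-MAEL antibody, as long RNA (2 libraries), as RNA of 50 to 150 nt (1 library) and as RNA of 15 to 50 nt (1 library), and long RNA recovered with rabbit IgG (1 library), the background of the precipitation. The sources used here do not give the age of the mice, the construction of the Mael-/- allele or whether libraries of one group are from different animals, so a p-value covers the spread between libraries alone, which may be technical.

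piRNAs are bound by PIWI proteins, which they direct to complementary RNA, and in germ cells they silence transposons. In the mouse testis, the pachytene piRNAs arise during meiosis from long single-stranded precursor transcripts, many of which are annotated as noncoding and are cut into successive fragments in the cytoplasm. Maelstrom (MAEL) is a germ cell protein of the nuage, a perinuclear granule rich in piRNA factors, and male mice without it are sterile.

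Library totals were 37195126 and 7965047 counts in Mael-/- small RNA, and 80965066 and 13961303 counts in wild-type small RNA. Long RNA totals were 6074129 and 11412848 counts with anti-MAEL, and 7924898 counts with IgG. The 50 to 150 nt and 15 to 50 nt anti-MAEL libraries held 71817306 and 201367291 counts. Of 37991 transcript IDs, 0 were found in the reference tables, so transcripts are given by ID or size without gene names, and testis marker genes and Mael itself were not analysed here. The mRNA and ribosome footprint tables give these transcripts no coding size, and every row without a coding size, theirs among them, holds 0 counts in all 8 libraries of those assays, so these tables say nothing about their level.

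The 165 transcripts were 214 to 52401 nt long, with a median of 1653 nt. Their mean wild-type small RNA level ran from 10.4 to 6029 CPM, with a median of 18.5 CPM. Most stood near the threshold: 86 lay under 20 CPM, 51 from 20 to under 100 CPM, and 28 at 100 CPM or more. Only 4 reached 1000 CPM. Per kilobase of transcript, the wild-type level ran from 1.99 to 1776 CPM, with a median of 25.3 CPM. The members closest to the threshold on the inside, of 276, 1729 and 1651 nt, had 10.03, 10.05 and 10.17 CPM in the lower of the 2 wild-type libraries, and the first transcripts left outside, of 4423, 695 and 2956 nt, had 9.99, 9.96 and 9.96 CPM.

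The 2 wild-type libraries agreed within 1.5-fold at all but 3 members, of 214, 331 and 338 nt. The 331 nt transcript had 99.5 and 1805 CPM in the Mael-/- libraries, against 17.96 and 116 CPM in the wild-type libraries. Both genotypes were high in the second library there, so its groups overlapped. The 2 Mael-/- libraries differed by more than 1.5-fold at 13 members.

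Some members share their reads, so they are not 165 separate measurements. The 4 transcripts ENSMUST00000083748, ENSMUST00000093680, ENSMUST00000093731 and ENSMUST00000093738, each of 214 nt, held identical counts in all 9 libraries. With counts within 10% in every library taken as the same profile, 9 members fell into 3 sets and 159 profiles remained. The sources used here do not state how a read with several matching transcripts was counted, and values of near-identical or overlapping transcripts are therefore uncertain.

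Small RNA at the set was concentrated in a few transcripts. ENSMUST00000143781, of 4813 nt, had 11587 and 12945 CPM in the Mael-/- libraries, against 6107 and 5952 CPM in the wild-type libraries. It alone held 26.4% and 27.1% of the set's counts in Mael-/- and 29.0% and 29.5% in wild type. The Mael-/- libraries were higher in CPM without overlap, while the edgeR log2 fold change with TMM scaling was -0.29 ± 0.61 (SE, adjusted p = 0.773). With scaling by library totals the log2 fold change was 0.92, called higher (edgeR adjusted p = 0.00346). With TMM scaling it was 0.15 without the second Mael-/- library and -0.94 without the first. Its direction thus depended on the scaling and on the Mael-/- libraries used.

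ENSMUST00000151398 (1587 nt) had 2683 and 2948 CPM in Mael-/-, against 3022 and 2614 CPM in wild type, and was the member with the most wild-type small RNA per kilobase, at 1776 CPM. ENSMUST00000132332, of only 617 nt, followed at 1683 CPM per kilobase, with 1062 and 893 CPM in Mael-/- and 1182 and 895 CPM in wild type. ENSMUST00000166316 (957 nt) had 953 and 751 CPM in Mael-/-, against 975 and 916 CPM in wild type. At all 3 the genotypes overlapped in CPM, and none was called different, with adjusted p from the edgeR quasi-likelihood test of 0.161, 0.151 and 0.137. DESeq2 called all 3 lower, with adjusted p of 0.0210, 0.0330 and 0.0271. With edgeR, their log2 fold changes were -2.38 to -1.98 without the first Mael-/- library and -0.87 to -0.77 without the second. Such a fit has 1 library in a group and takes its spread from the other group alone, so only the fold change is given.

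The other abundant members were lower in Mael-/-. ENSMUST00000155688 (2410 nt) had 710 and 601 CPM in Mael-/-, against 1361 and 1451 CPM in wild type, a log2 fold change of -2.35 ± 0.59 (SE, edgeR adjusted p = 0.0409). ENSMUST00000133798 (3815 nt) had 306 and 244 CPM in Mael-/-, against 626 and 704 CPM in wild type, a log2 fold change of -2.51 ± 0.58 (SE, edgeR adjusted p = 0.0302). The genotypes did not overlap at either transcript. Without the first or the second wild-type library, the log2 fold change was -2.24 or -2.52 for ENSMUST00000155688 and -2.44 or -2.64 for ENSMUST00000133798. Without the filter on low counts neither was called, with edgeR adjusted p of 0.208 and 0.125 in that order. With size factors it was 0.0595 for ENSMUST00000155688. The 6 highest members of each library together held 50.3% and 51.7% of the set's counts in Mael-/-, against 63.0% and 62.2% in wild type.

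**Figure D1:**
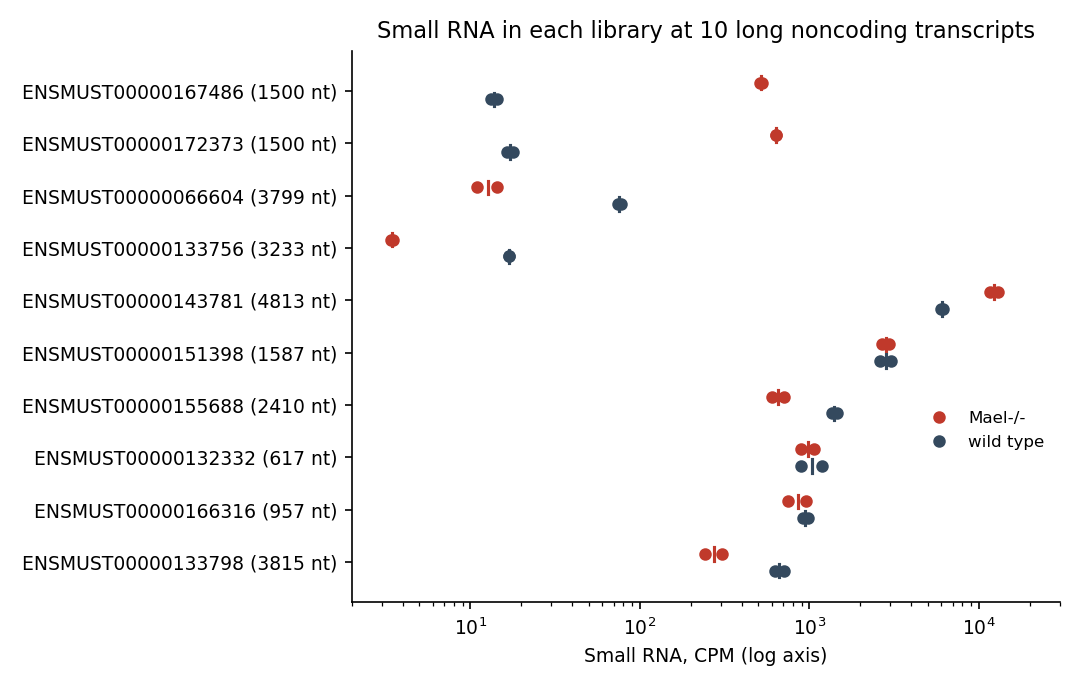
Small RNA level (CPM, log axis) in each of the 2 Mael-/- and 2 wild-type libraries at 10 transcripts: the 2 most increased and the 2 most decreased calls, then the 6 most abundant in wild type. Points are libraries and the short lines their means; the 2 transcripts of 1500 nt stand at 512 to 638 CPM in Mael-/- and 13.3 to 17.9 CPM in wild type, and ENSMUST00000143781 is the highest in both genotypes.

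As a share of all small RNA counts, the 165 transcripts held 4.39% and 4.78% in the Mael-/- libraries (mean 4.59 ± 0.279%, SD, n = 2), against 2.11% and 2.01% in the wild-type libraries (mean 2.06 ± 0.0662%, SD, n = 2). The share was 2.23-fold as large in Mael-/-, with no overlap, which is given as a description because the wild-type libraries chose the members. With 1 entry per piRNA locus in the totals, the mean share was 7.67% in Mael-/- and 3.73% in wild type. Coding transcripts past the same wild-type level showed the same pattern, with 4.24 ± 0.349% in Mael-/- and 2.09 ± 0.00044% in wild type (SD, n = 2). The ratio of the 2 shares, noncoding over coding, was 1.08 ± 0.0232 in Mael-/- and 0.988 ± 0.0319 in wild type (SD, n = 2). In bulk testis RNA, fewer cells of a type and less RNA per cell cannot be told apart.

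The direction of the genotype difference across the set depended on the scaling. Single members had Mael-/- over wild-type CPM ratios from 0.168 to 37.5, with a median of 1.96. In CPM, both Mael-/- libraries lay above both wild-type libraries at 112 of 165 members, where 69.0% of all 9906 features tested did so, and below them at 30 members, where 5.03% of all features did. TMM scaling, which centres the bulk of features, put the median log2 fold change of the set at -0.31 (quartiles -1.28 and 0.73), beside 0.15 for all features and -0.30 for coding transcripts of the same wild-type level. Scaling by library totals raised the median of all features by 1.27 and put the set at 0.86. Relative to the median of all features, the set stood at -0.46 with TMM scaling and -0.56 with library totals.

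With TMM scaling, 11 members were called higher and 24 lower in Mael-/- at an adjusted p under 0.05, 6.67% and 14.5% of the set. Of all features, 3.82% were called higher and 3.49% lower, and of the coding transcripts at the same level 2.27% and 10.7%. With library totals, 81 members were called higher and 16 lower, where 24.7% of all features were higher and 1.40% lower, and 49.4% and 8.44% of the coding transcripts. The share of calls that were higher was thus 31.4% with TMM scaling and 83.5% with library totals. Because wild-type levels chose the members, these counts describe the set and test nothing about it. Leaving out the first or the second wild-type library put the set's median log2 fold change with TMM scaling at -0.16 or -0.61. Leaving out the first or the second Mael-/- library put it at -1.04 or 0.045.

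**Figure D2:**
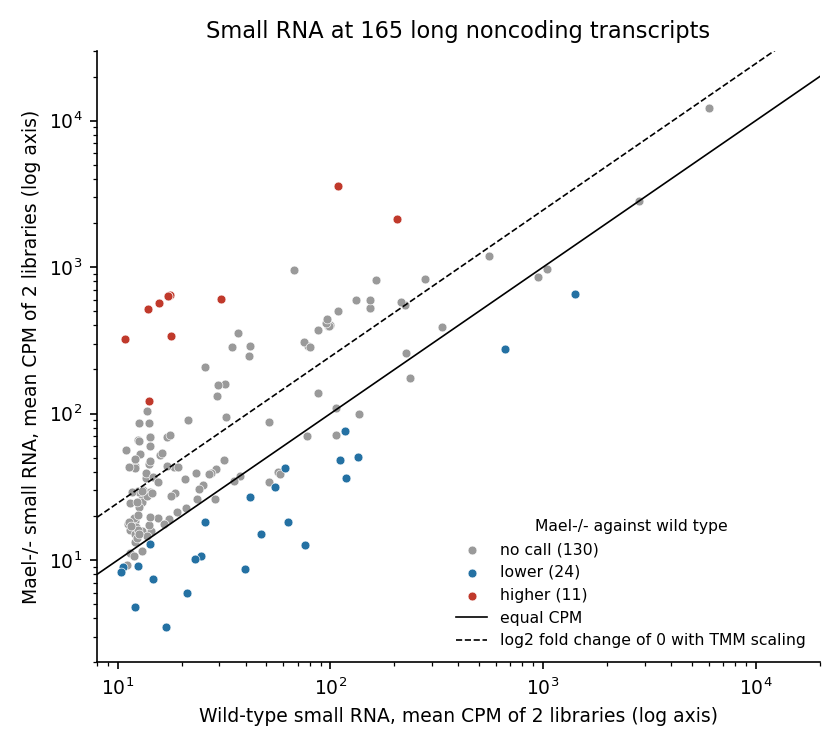
Mean small RNA level of each of the 165 transcripts in Mael-/- (vertical, CPM, log axis) against wild type (horizontal, CPM, log axis), coloured by the call with TMM scaling. The solid line marks equal CPM and the dashed line a log2 fold change of 0 after TMM scaling. The 11 higher calls lie above both lines. With TMM scaling, 67 members had a log2 fold change above 0 and 98 below 0.

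**Figure D3:**
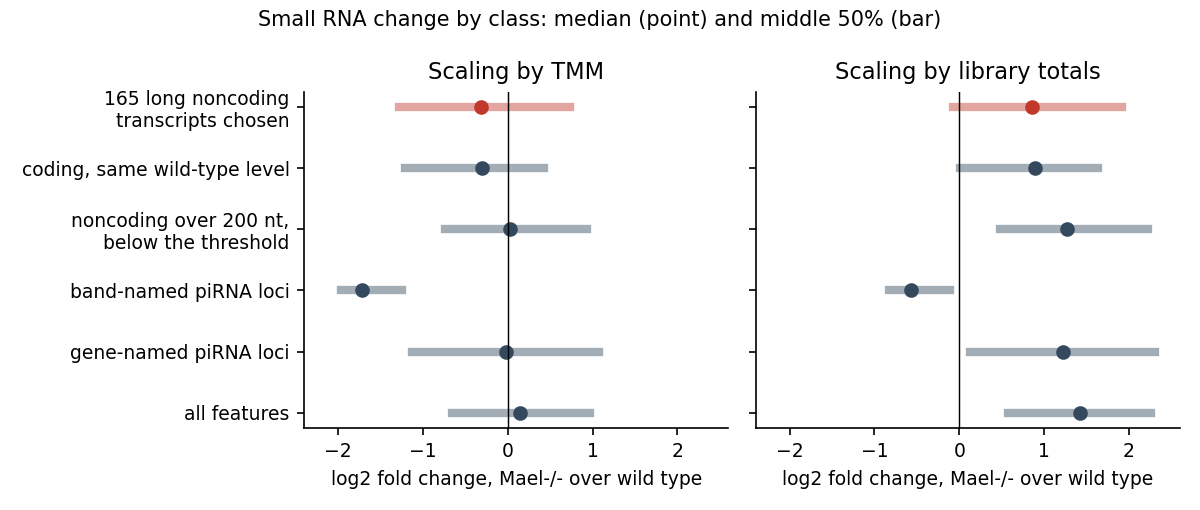
Log2 fold change of small RNA, Mael-/- over wild type, in 6 classes of features, with TMM scaling on the left and scaling by library totals on the right. Points are medians and bars span the quartiles; the long noncoding set and the coding transcripts at the same wild-type level have near-equal medians (-0.31 and -0.30 with TMM scaling, 0.86 and 0.90 with library totals), and the band-named piRNA loci stand lower (-1.72 and -0.57).

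The piRNA loci in the same tables form 2 classes, 100 named by chromosome band and 114 named by a gene. At the 99 tested band-named loci the median log2 fold change in Mael-/- small RNA was -1.72 with TMM scaling and -0.57 with library totals, below the median of the long noncoding set on either scale. The gene-named loci had medians of -0.02 and 1.23. These differences between classes were not tested.

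Among the transcripts that rose in Mael-/-, all 5 members of exactly 1500 nt stood together. They had 512 to 648 CPM in the Mael-/- libraries, against 13.3 to 18.5 CPM in the wild-type libraries. ENSMUST00000167486 had 528.6 and 511.7 CPM in Mael-/-, against 13.3 and 14.4 CPM in wild type, a log2 fold change of 3.95 ± 0.55 (SE, edgeR adjusted p = 0.00438). ENSMUST00000172373 had 632 and 637.5 CPM in Mael-/-, against 16.4 and 17.9 CPM in wild type, a log2 fold change of 3.93 ± 0.55 (SE, edgeR adjusted p = 0.00442). Across the 5, CPM ratios were 36.3 to 37.5 and log2 fold changes 3.89 to 3.95 with TMM scaling, or 5.08 to 5.13 with library totals. Of these 5, 3 had counts within 10% of each other in every library, so the 5 are not 5 separate observations. Whether the rest share reads with them was not tested.

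The other 6 higher calls had sizes from 1131 to 6621 nt. The transcript of 3846 nt was the most abundant of them, with 3431 and 3687 CPM in Mael-/-, against 104 and 113 CPM in wild type. The transcript of 6621 nt had 2056 and 2230 CPM in Mael-/-, against 202 and 209 CPM in wild type. Its counts in the 5 immunoprecipitation libraries kept a ratio of 0.294 to 0.313 to those of a row named MUSRSLIMA after a GenBank record, and whether its reads are shared with that row was not tested. At all 11 transcripts the Mael-/- libraries lay above the wild-type libraries, and all 11 were also called higher with library totals. Of all features tested, 69.0% lay above without overlap and 24.7% were called higher with library totals. The 11 were picked by their calls in the same libraries, so these counts are a description.

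The 24 transcripts that fell with TMM scaling were 245 to 4135 nt long. ENSMUST00000066604 (3799 nt) had 14.4 and 10.9 CPM in Mael-/-, against 77.2 and 74.0 CPM in wild type, a log2 fold change of -3.81 ± 0.56 (SE, edgeR adjusted p = 0.00519). Without the first wild-type library the log2 fold change was -3.61. ENSMUST00000133756 (3233 nt) had 3.41 and 3.52 CPM in Mael-/-, against 16.9 and 17.0 CPM in wild type, a log2 fold change of -3.56 ± 0.47 (SE, edgeR adjusted p = 0.00343). At 22 of the 24 the Mael-/- libraries lay below the wild-type libraries in CPM without overlap. With library totals the fold change was below 0 at all 24, from -2.67 to -0.25, and 16 kept their call. Of all features tested, 5.03% lay below without overlap and 1.40% were called lower with library totals. The 24 were likewise picked by their calls.

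A few members could be tied to a piRNA locus by their counts. At 4 of them, the counts agreed within 10% with those of one locus entry in all 9 libraries: ENSMUST00000133798 with 5-qG2-950, and the transcripts of 337, 2012 and 4135 nt with 11-qE1-3997, 1-qC1.3-637 and 10-qC2-545. The 337 nt transcript had 53.7 and 48.1 CPM in Mael-/-, against 135 and 134 CPM in wild type, the 2012 nt transcript 7.96 and 6.91 CPM against 15.2 and 14.0 CPM, and the 4135 nt transcript 37.7 and 34.8 CPM against 115 and 121 CPM. All 4 were called lower in Mael-/-, with log2 fold changes from -2.97 to -2.23. Called lower were 14.5% of the whole set, 3.49% of all features and 18.2% of the 99 tested band-named loci. Only transcripts with at least 1 count in every small RNA and long RNA library could match an entry. Overlap of the remaining members with loci was not tested, since the tables give no coordinates.

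The anti-MAEL libraries were not used to choose the transcripts. The set held 5.33% and 4.13% of long RNA counts with anti-MAEL (mean 4.73 ± 0.851%, SD, n = 2), against 1.88% in the single IgG library. Counts were high enough to test 145 of the 165, and 38 were called higher with anti-MAEL, 26.2% of those tested, while 0 were called lower. Of all 16066 features tested, 1.28% were called higher and 0.00% lower, with 1225 at an unadjusted p under 0.05 in either direction, and DESeq2 also called 0 members lower. Coding transcripts at the same wild-type small RNA level were called higher at 16.6% of 302 tested, and noncoding transcripts over 200 nt below the threshold at 1.02% of 4502. The IgG group is 1 library, assumed to vary like the anti-MAEL ones.

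The median log2 fold change, anti-MAEL over IgG, was 1.82 at the 145 tested members (quartiles 0.34 and 3.14), beside 0.52 at the coding transcripts of the same level and 0.02 at all features. It was above 0 at 124 of 145, where 8294 of all 16066 features and 231 of these 302 coding transcripts were above 0. Without the first anti-MAEL library the median was 1.15 and without the second 2.27, with no test of 1 library against 1. In CPM, both anti-MAEL libraries lay above IgG at 110 of 165 members, where 15.7% of all features tested did, and both lay below at 32 members, where 54.1% of all features did. The 20 members left untested had low counts in all 3 libraries, and without the filter on low counts 72 of 165 were called higher, where 2.49% of 26559 features were. With library totals in place of TMM scaling only 14 members were called higher, 5 of them among the 38, while the median was 1.42. On that scaling 111 of 145 members were above 0, where 4665 of 16066 features were.

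The 38 enriched transcripts had 5.78 to 1594 CPM in the anti-MAEL libraries, against 0.252 to 46.4 CPM in the IgG library, with log2 fold changes of 1.87 to 6.18. ENSMUST00000119963 (412 nt) had 15.8 and 13.2 CPM with anti-MAEL, against 0.252 CPM with IgG, which rests on 247 against 2 counts (ratio 56.0, 95% counting interval 15.3 to 465, edgeR adjusted p = 0.00981). Its small RNA was 439.8 and 334.5 CPM in Mael-/-, against 334.6 and 333.7 CPM in wild type. ENSMUST00000120436 (1422 nt) had 1500.6 and 964 CPM with anti-MAEL, against 31.2 CPM in the IgG library, and its log2 fold change was 5.80 ± 1.13 (SE, edgeR adjusted p = 0.0445). Its small RNA was 329 and 291 CPM in Mael-/-, against 74.95 and 74.99 CPM in wild type.

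Among the 6 most abundant members, 3 were enriched. ENSMUST00000143781 had 80.3 and 48.1 CPM with anti-MAEL, against 9.59 CPM with IgG (log2 fold change 3.23 ± 0.57, SE, edgeR adjusted p = 0.0283). ENSMUST00000151398 had 61.9 and 41.4 CPM with anti-MAEL, against 6.44 CPM with IgG (log2 fold change 3.47 ± 0.54, SE, edgeR adjusted p = 0.0181). ENSMUST00000155688 had 247 and 184 CPM with anti-MAEL, against 43.3 CPM with IgG (log2 fold change 2.78 ± 0.55, SE, edgeR adjusted p = 0.0459). The anti-MAEL libraries lay above IgG at each of these 3. ENSMUST00000133798 had 190 and 151 CPM with anti-MAEL, against 62.1 CPM with IgG, above it in both libraries without a call (log2 fold change 1.92 ± 0.49, SE, edgeR adjusted p = 0.118). ENSMUST00000166316 had 107 and 119 CPM with anti-MAEL, against 107 CPM with IgG, and was not called. ENSMUST00000132332 was nearly absent from long RNA, at 0.329 and 0.350 CPM with anti-MAEL against 0.126 CPM with IgG, with 4 counts or fewer in each library, while it ranked second in small RNA per kilobase.

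ENSMUST00000044500, the longest member at 52401 nt, had 244 and 149 CPM with anti-MAEL, against 22.2 CPM with IgG (log2 fold change 3.64 ± 0.64, SE, edgeR adjusted p = 0.0272). Its small RNA was 595 and 598 CPM in Mael-/-, against 135 and 130 CPM in wild type, above wild type in CPM but with an edgeR adjusted p of 0.268 with TMM scaling and 0.000931 with library totals.

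The anti-MAEL and genotype results were then set side by side. Of the 11 transcripts called higher in Mael-/- small RNA, 8 were also called higher with anti-MAEL. Of the 145 members tested with anti-MAEL, 26.2% were called higher, and of all features tested 1.28%. The median log2 fold change over IgG across the 11 was 2.50, the value of a 1500 nt transcript. The 5 transcripts of 1500 nt, which are not 5 separate observations, were among these 8. They had 59.1 to 234 CPM in the anti-MAEL libraries, against 20.2 to 46.4 CPM in the IgG library. Their edgeR adjusted p was 0.0121 to 0.0234 with TMM scaling. With library totals none of the 5 was called, at log2 fold changes of 1.999 to 2.18 and an adjusted p of 1.00 each. Of the 24 called lower, 18 could be tested with anti-MAEL and 3 were called, with a median of 1.21. The 2 most decreased transcripts, of 3799 and 3233 nt, held 4 counts or fewer in each long RNA library and were not tested. Across the 145 members tested in both, the 2 log2 fold changes had a Pearson correlation of 0.21 and a Spearman correlation of 0.20, given as a description, since members share reads and depth. Seen from the other side, the 38 enriched transcripts had a median small RNA log2 fold change of -0.03 with TMM scaling, the 107 tested without a call -0.39 and the 20 untested -0.99, or 1.16, 0.84 and 0.20 with library totals. These differences between groups of members were not tested.

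**Figure D4:**
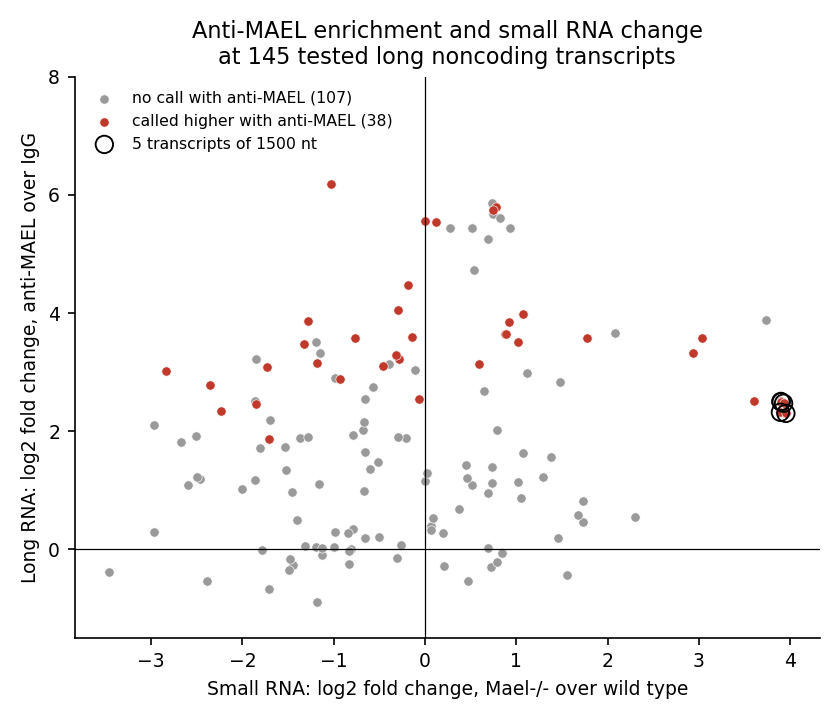
Log2 fold change of long RNA with anti-MAEL over IgG (vertical) against log2 fold change of small RNA in Mael-/- over wild type with TMM scaling (horizontal) at the 145 transcripts tested in both. The 38 called higher with anti-MAEL are coloured, the 5 of 1500 nt are circled at the right, between 2.30 and 2.50 on the vertical axis, and enriched transcripts occur on both sides of 0 on the horizontal axis.

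Enrichment and small RNA level also varied with transcript size, and differences between size classes were not tested. Across all sizes, 26.2% of the tested members and 1.28% of all features tested were called higher with anti-MAEL. Of 35 members from 201 to 500 nt, 26 could be tested and 4 were called with anti-MAEL, with a median log2 fold change of 0.31. Of 38 from 501 to 1500 nt, 34 could be tested and 13 were called, with a median of 2.31. These 13 include the 5 transcripts of 1500 nt, which are not 5 separate observations. The median lies among their values of 2.30 to 2.50. The 46 from 1501 to 3000 nt had 12 calls among 42 tested and a median of 2.11, and the 46 longer ones 9 calls among 43 tested and a median of 1.72. Wild-type small RNA per kilobase had medians of 56.3, 30.5, 12.1 and 5.14 CPM in these 4 size classes. A minimum of 10 CPM per transcript asks for more small RNA per kilobase of a short transcript, so the order of these levels is partly set by the rule.

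The size-selected anti-MAEL libraries have no IgG library of the same size and no replicate, so they are given as levels. In RNA of 15 to 50 nt recovered with anti-MAEL, the 165 transcripts held 14.6% of counts (95% exact binomial interval 14.62 to 14.63%), and in RNA of 50 to 150 nt 4.72% (interval 4.715 to 4.725%), which cover counting error only. Coding transcripts at the same wild-type level held 12.4% of the 15 to 50 nt counts, against 2.09% in each wild-type small RNA library. The set held 2.11% and 2.01% there, so both classes had a larger share in the anti-MAEL library. At 119 of 165 members the 15 to 50 nt level was above the mean wild-type small RNA level, and at 46 below it. The median ratio was 9.61, with a range from 0.00615 to 93.1. The same count is not given for all features, so it does not set the members apart. ENSMUST00000120436 had 6736 CPM at 15 to 50 nt, 89.9-fold its wild-type small RNA level. ENSMUST00000151398 had 67.8 CPM at 15 to 50 nt, 0.0241-fold its wild-type level, and ENSMUST00000155688 had 14.8 CPM, 0.0105-fold. Thus members abundant in testis small RNA included ones with little small RNA in the anti-MAEL fraction. At 11 members the 15 to 50 nt level was under 1 CPM.

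A group of 13 transcripts, of 1284 to 5054 nt, stood apart with at least 5000 CPM in the 15 to 50 nt anti-MAEL library, a limit set after the values were seen. They had 783 to 3407 CPM in the anti-MAEL long RNA libraries, against 29.3 to 95.02 CPM in the IgG library. Their log2 fold changes over IgG were 4.73 to 5.87 and 4 were called, with adjusted p across the 13 from 0.0373 to 0.142. In small RNA they had 278 to 841 CPM in Mael-/-, against 74.9 to 286 CPM in wild type, and none was called with TMM scaling. The 13 are not separate measurements. Its members of 3539 and 3543 nt held identical counts in the long RNA libraries (20695 and 28703 with anti-MAEL, 753 with IgG). At 15 to 50 nt they held 1784273, 1784267 and 1784271 counts. Together with 4 others of at least 500 CPM in both anti-MAEL long RNA libraries, the 13 held 71.6% of the set's 15 to 50 nt anti-MAEL counts. That was 10.5% of the whole library, and reads shared between members can enter these shares more than once. Of those 4 others, the 331 and 338 nt transcripts were as high with IgG as with anti-MAEL: the 331 nt transcript had 10802 and 9182 CPM with anti-MAEL, against 9359 CPM with IgG.

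**Figure D5:**
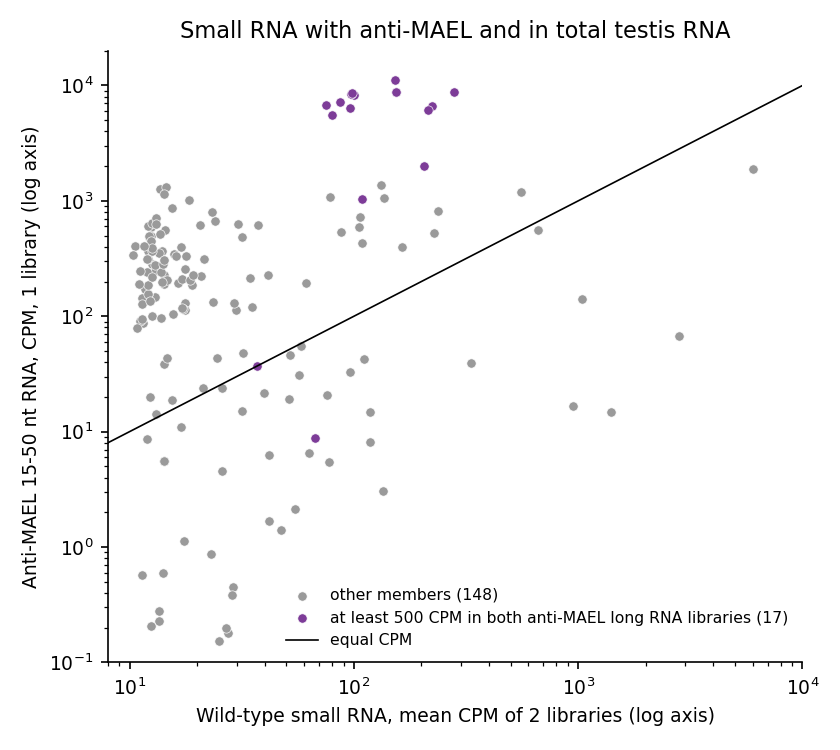
Level of each of the 165 transcripts in the anti-MAEL library of 15 to 50 nt RNA (vertical, CPM, log axis, 1 library) against its mean wild-type small RNA level (horizontal, CPM, log axis, 2 libraries). The line marks equal CPM; the 17 transcripts of at least 500 CPM in both anti-MAEL long RNA libraries are coloured, and 13 of them form the group at 5541 to 11217 CPM.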

How the data were processed

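Each deposited file gives raw read counts per row for 1 library. Software listed in the submitters' processing notes, with no role stated, was TopHat2 2.0.7, Bowtie2 2.0.6 and CASAVA 1.8, and the build mm9. Per the labels' protocols, the kit for long RNA does not keep strand and the kit for small RNA does; the sources used here do not state whether the counts use strand, so antisense and overlapping transcripts are uncertain. CPM are counts per 1000000 counts over all rows of a library.

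The test was that of edgeR 4.0.16 under R 4.3.3 (quasi-likelihood test, TMM scaling, filterByExpr, Benjamini-Hochberg adjustment over all features tested, threshold 0.05) on the whole table, with the entry of most counts standing for each piRNA locus. Scaling by library totals used totals on that basis. TMM factors ran from 0.579 to 1.97 in small RNA and from 0.746 to 1.17 in long RNA. Small RNA used 4 libraries with genotype as the only term, and anti-MAEL against IgG used 3 libraries. The libraries of a group differed by more than sampling noise, with chi-square per degree of freedom of 12.0 in wild-type and 49.4 in Mael-/- small RNA and 51.5 with anti-MAEL, so none were merged. Intervals are exact at 95% and cover counting error only, since the reads carry no molecular identifiers. Alternatives were size factors, library totals, no filter, DESeq2 1.42.0, a replicate block, each library left out, all locus entries, thresholds of 5 and 20 CPM and merging members with identical counts. Python 3.11.15 did the rest, and the tests were tried on simulated data.

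The members, lists and tests were chosen with earlier results of these data known. Transcripts named by ID were the 6 highest in wild-type small RNA, the 3 highest per kilobase, the 2 most changed calls in each direction of each comparison (for anti-MAEL with a mean of at least 5 CPM), the largest set with identical counts and the longest; the 3 on either side of the threshold are given by size. Marker and pathway lists could not be used because 0 of 37991 IDs matched the reference tables.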

Additional observations from a re-analysis of the deposited data

How the results depend on the processing

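In Mael-/- against wild-type small RNA, 11 members were called higher, 24 lower and the median log2 fold change was -0.31. Scaling by library totals gave 81 higher calls and a median of 0.86; no filter gave 13 lower; DESeq2 gave 44 lower. A threshold of 5 CPM gave 23 higher and 47 lower, and one of 20 CPM gave 3 higher and a median of -0.84. Leaving out 1 library gave 0 to 47 higher calls, 1 to 76 lower calls and medians of -1.04 to 0.045. ENSMUST00000143781 changed sign with library totals (0.92) and without the second Mael-/- library (0.15), and stood at -0.94 without the first. In anti-MAEL against IgG, 38 members were called higher with a median of 1.82. Library totals gave 14 and 1.42, no filter 72, a threshold of 5 CPM a median of 1.00, and one of 20 CPM 23 calls and 2.89. Size factors gave 49 calls, the 38 among them, and DESeq2 54, with 37 shared. Leaving out an anti-MAEL library leaves 1 against 1, a value with no test, with medians of 1.15 and 2.27. With 1 entry per piRNA locus in the total, the set's share was 7.67% in Mael-/- and 3.73% in wild type. The causes were not tested. Merging identical or near-identical members, dropping the 4 that match a locus or the 3 with unlike wild-type libraries (near-identical, locus and unlike-library settings were chosen after seeing the data), size factors and keeping all locus entries kept each of these counts within 1.5 times and each median's direction.

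The letters a and b of the small RNA libraries are shared between genotypes, but no label says that they mark an animal or day, and deviations of same-letter libraries had a correlation of 0.458 over 9906 features and 0.780 over the 165 members. With the letter as a replicate block, 49 members were called higher and 80 lower, with a median of -0.34, where 23.4% of all features were called higher and 17.7% lower. The block also called ENSMUST00000151398, ENSMUST00000132332 and ENSMUST00000166316 lower (edgeR adjusted p = 0.0155, 0.00128 and 0.000493) and ENSMUST00000044500 higher (0.0119). IgG has a single library.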
